A study of Mus musculus with 9 samples.

Results

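SB431542-treated cardiosphere-derived cells were compared with primary epicardium-derived cardiosphere-derived cells (pECDCs) by RNA sequencing, across all genes and with 3 libraries in each group, which makes 6 of the 9 libraries analysed. The other 3 libraries, from immortalized ECDCs (iECDCs), were used to place the untreated immortalized level beside each difference. All cells came from the C57BL/6 mouse heart. The pECDCs were untreated primary cells from explant culture, and the iECDCs were untreated cells at passage 30 after immortalization with human telomerase reverse transcriptase (hTERT). For the treated libraries the sources differ: the sample labels describe iECDCs at passage 30 given SB431542 for 3 days, whereas the methods of the study describe a treated epithelial clone derived from pECDCs. They are therefore called SB431542-treated cells here, and what the drug, the passages, the hTERT vector and a clone each contribute cannot be told apart in this comparison. Nothing in the labels says whether the 3 libraries of a group came from separate cultures or animals, so p-values measure only the spread between these libraries, which may be technical.

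Cardiosphere-derived cells are adherent, mesenchymal-like cells that grow out of heart explants, and those of the epicardium, the mesothelial layer around the heart, can undergo epithelial-to-mesenchymal transition (EMT). Transforming growth factor-β (TGF-β) and activin bind type II receptors, which activate the type I receptors ALK5 (Tgfbr1), ALK4 (Acvr1b) and ALK7 (Acvr1c). These phosphorylate SMAD2 and SMAD3, which enter the nucleus with SMAD4 and switch on genes for matrix, contractile proteins and feedback inhibitors. SB431542 is a small molecule that blocks the kinase of these type I receptors and largely spares the receptors for bone morphogenetic proteins (BMPs).

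Each library held 16568306 to 23951392 counts, so depth differed little between groups. Levels are given as FPKM (fragments per kilobase of gene, scaled to library size), in the order of replicates 1, 2 and 3. The SB431542 libraries did not form an even group. Spearman's rho over genes was 0.992 between replicates 1 and 3 but 0.966 between replicate 2 and either of them, against 0.993 to 0.994 among pECDCs, and iECDC replicate 3 also stood apart (0.982 with the other iECDCs, which had 0.991). The library nearest to SB431542 replicate 2 was iECDC replicate 3 (0.969), and its rho with pECDCs was 0.961 to 0.962. Over all genes without a level cut, its rho was 0.907 with iECDC replicate 3 and 0.914 with SB431542 replicates 1 and 3. What sets SB431542 replicate 2 apart was not tested. Among 1479 tested genes that differed at least 2-fold between pECDCs and SB431542 replicates 1 and 3, replicate 2 lay at a median of 0.53 of the way from the pECDC mean to the mean of those replicates on the log2 scale, at 0.45 for the 846 higher genes and 0.70 for the 633 lower ones. Because of this library, most counts of calls are given with and without it, and many also as a range with each of the other 5 libraries left out in turn. Markers of other cell types were low: Pecam1, Cdh5, Ptprc and Myh6 were each under 0.05 FPKM on average in every group, and 4 of 10 endothelial, 5 of 10 haematopoietic and 10 of 15 cardiomyocyte markers had at most 3 counts in every library. The fibroblast genes Col1a1 and Col1a2 were abundant in all 9 libraries, while the epithelial genes Cdh1, Epcam and Krt8 were at or near 0 in all of them.

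**Figure D1:**
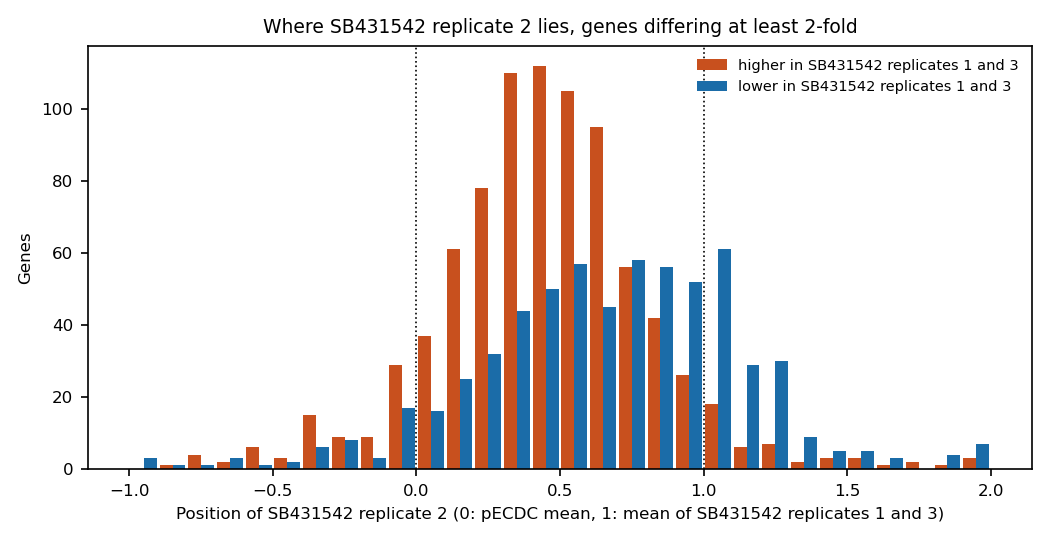
Position of SB431542 replicate 2 for each of 1479 genes that differed at least 2-fold between pECDCs and SB431542 replicates 1 and 3 (x axis, 0 is the pECDC mean and 1 the mean of replicates 1 and 3 on the log2 scale; y axis, number of genes; values beyond the axis are in the end bins). Genes higher in the treated cells (orange) centre on 0.45 and genes lower in them (blue) on 0.70.

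The comparison was wide in both directions. Of 14015 genes tested with edgeR's quasi-likelihood test, 4881 (34.8%) were called, of which 2503 were higher (17.9%) and 2378 lower (17.0%) in SB431542-treated cells than in pECDCs at a Benjamini-Hochberg adjusted p under 0.05, which is what "called" means below. A called difference had a median size of 0.61 on the log2 scale, and 748 higher and 582 lower genes passed a 2-fold change as well. Groups whose libraries did not overlap were common, at 51.5% of tested genes (39.9% between iECDCs and pECDCs and 46.5% between treated cells and iECDCs), so this alone marks no gene. Without SB431542 replicate 2, 4552 genes were called higher (31.7%) and 4636 lower (32.3%) of 14345 tested. Leaving out 1 pECDC library in turn gave 2453 to 2522 calls in all, and leaving out SB431542 replicate 1 gave 3181. In the side comparisons, iECDCs differed from pECDCs in 2258 of 13752 genes (16.4%, with 992 higher and 1266 lower, or 9.21%) and SB431542-treated cells from iECDCs in 4061 of 13559 genes (30.0%, with 2164 higher and 1897 lower). The 3 comparisons share libraries and are given side by side only.

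TGF-β target genes fell. Of 20 genes listed as TGF-β targets, 15 were called lower and 1 higher in SB431542-treated cells than in pECDCs, with a median log2 fold change of -0.95 against 0.0068 over all genes tested. Without replicate 2 the counts were 17 and 2 and the median -1.22. The shares lower and higher were 75.0% and 5.0%, beside 17.0% and 17.9% of all tested genes. Pmepa1, a transmembrane feedback inhibitor of SMAD signalling on chromosome 2, 173224458 to 173276533, minus strand (GRCm38), had FPKM of 57.49, 59.8 and 60.9 in pECDCs, 64.1, 66.4 and 70.54 in iECDCs and 2.54, 5.27 and 2.32 in SB431542-treated cells. All treated libraries lay far below both untreated groups, and the log2 fold change against pECDCs was -4.12 ± 0.31, adjusted p = 0.000297. Ctgf, a matricellular protein, had FPKM of 323, 319.6 and 331 in pECDCs and 27.4, 70.9 and 30.7 in SB431542-treated cells (log2 fold change -2.91 ± 0.36, adjusted p = 0.00171). Ctgf was higher in iECDCs than in pECDCs, by 0.44 on the log2 scale.

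The nuclear and membrane feedback genes of the pathway fell as well. Skil, a nuclear co-repressor of SMADs, had 9.14, 9.13 and 8.72 in pECDCs and 1.92, 2.79 and 1.73 in SB431542-treated cells (log2 fold change -2.06 ± 0.17, adjusted p = 0.000404). The log2 fold changes were -1.35 ± 0.22, adjusted p = 0.0045 for the inhibitory Smad7, -1.37 ± 0.10, adjusted p = 0.000318 for Ldlrad4, which dampens receptor signalling, and -0.85 ± 0.096, adjusted p = 0.00133 for the ubiquitin ligase gene Smurf2. For these 4 genes no treated library overlapped the primary ones, which also held for 51.5% of all tested genes. Il11, a cytokine of fibroblast activation, had 6.67, 5.84 and 5.53 in pECDCs, 3.74, 3.75 and 1.39 in iECDCs and 0, 0.402 and 0.193 in SB431542-treated cells, so that it was lower in iECDCs (log2 fold change -1.02) and lower again in treated cells. Ltbp2, a matrix protein of the latent TGF-β binding family, had 6.48, 6.15 and 6.13 in pECDCs and 0.00697, 0.453 and 0.00676 in SB431542-treated cells (log2 fold change -5.21 ± 0.81, adjusted p = 0.0038, and -9.68 without replicate 2). Cdkn2b, an inhibitor of cyclin-dependent kinases 4 and 6, had 5.31, 6.61 and 5.79 in pECDCs, 0 in every library of iECDCs and 0 in every library of SB431542-treated cells, at least 50.9-fold lower against a floor of 3 counts per library. The 1 member called higher was Angptl4, a secreted regulator of lipoprotein lipase, with 24.7, 25.48 and 24.6 in pECDCs, 52.7, 47.8 and 33.9 in iECDCs and 33.3, 34.6 and 33.9 in SB431542-treated cells (log2 fold change 0.45 ± 0.059, adjusted p = 0.00205). Junb and Ncs1, the most abundant members that were not called, had log2 fold changes of -0.29 ± 0.093 and -0.14 ± 0.23. Tgfbi, a list member named after its values were seen, was not called against pECDCs (log2 fold change 0.79, adjusted p = 0.282). Against iECDCs 13 of 19 tested members were called lower and 1 higher, which was Tgfbi (log2 fold change 3.53, adjusted p = 0.00405).

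**Figure D2:**
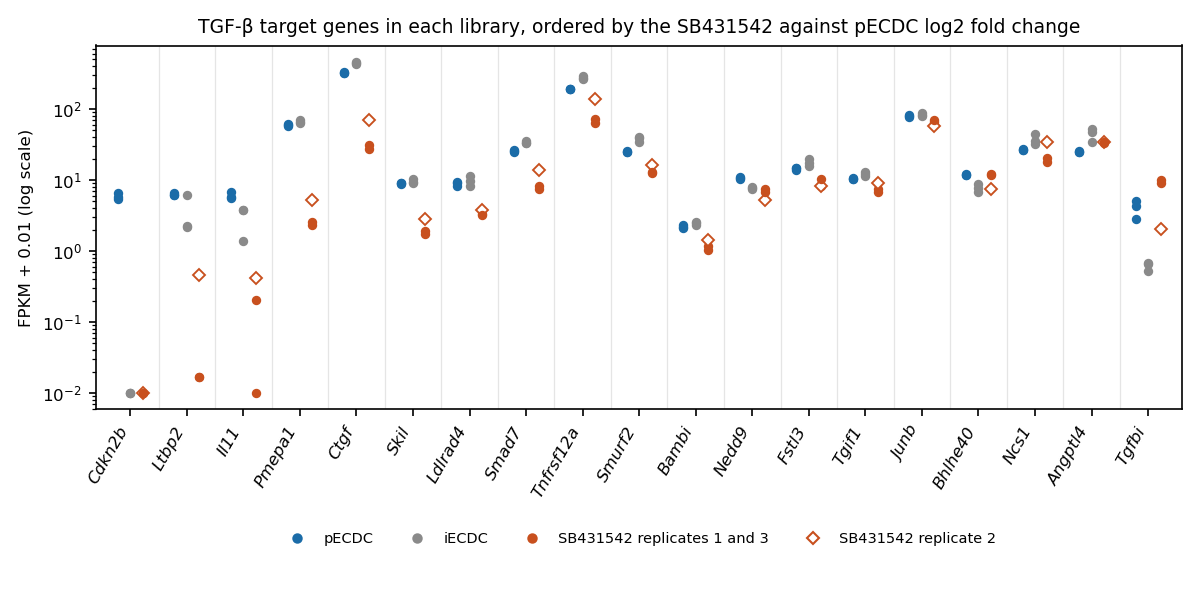
FPKM plus 0.01 on a log axis for 19 TGF-β target genes (x axis, ordered by log2 fold change of SB431542 against pECDC) in each of 9 libraries, blue for pECDC, grey for iECDC, orange for SB431542 and an open diamond for SB431542 replicate 2. Most genes on the left have treated libraries well below both other groups, with the diamond above the other treated libraries in Pmepa1, Ctgf and Skil.

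Promoter sequences of target genes are shown to set the SMAD letters beside these changes. Among the target genes called both against pECDCs and against iECDCs, these 4 changed most of those with an entry in the RefSeq promoter table (build GRCm38.p6, 250 bases before to 50 after the start, gene strand, 5′ to 3′). The capitals mark AGAC or its reverse complement GTCT, the 4-letter SMAD box, on either strand. They were picked after the values were seen, and Il11 has a second start that is not shown. The windows are chr12:84876442-84876741 for Ltbp2, chr7:4782808-4783107 for Il11, chr17:23677400-23677699 for Tnfrsf12a and chr11:106920666-106920965 for Smurf2, all on the minus strand.
Ltbp2: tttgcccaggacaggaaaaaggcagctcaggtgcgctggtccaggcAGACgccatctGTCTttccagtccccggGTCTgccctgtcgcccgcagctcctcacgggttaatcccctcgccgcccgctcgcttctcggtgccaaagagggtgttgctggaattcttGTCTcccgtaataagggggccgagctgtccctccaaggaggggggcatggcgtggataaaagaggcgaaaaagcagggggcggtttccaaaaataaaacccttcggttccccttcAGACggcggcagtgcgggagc
Il11: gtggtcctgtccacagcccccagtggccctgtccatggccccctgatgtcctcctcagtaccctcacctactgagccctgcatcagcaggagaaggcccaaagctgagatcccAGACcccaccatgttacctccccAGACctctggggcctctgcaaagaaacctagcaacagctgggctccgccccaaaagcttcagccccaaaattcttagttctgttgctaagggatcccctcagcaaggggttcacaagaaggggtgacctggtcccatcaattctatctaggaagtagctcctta
Tnfrsf12a: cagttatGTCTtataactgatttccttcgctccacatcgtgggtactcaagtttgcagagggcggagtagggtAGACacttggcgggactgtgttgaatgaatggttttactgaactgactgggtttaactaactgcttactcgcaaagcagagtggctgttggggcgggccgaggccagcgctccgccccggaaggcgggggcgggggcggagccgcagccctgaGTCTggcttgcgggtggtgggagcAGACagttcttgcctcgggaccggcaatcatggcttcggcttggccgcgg
Smurf2: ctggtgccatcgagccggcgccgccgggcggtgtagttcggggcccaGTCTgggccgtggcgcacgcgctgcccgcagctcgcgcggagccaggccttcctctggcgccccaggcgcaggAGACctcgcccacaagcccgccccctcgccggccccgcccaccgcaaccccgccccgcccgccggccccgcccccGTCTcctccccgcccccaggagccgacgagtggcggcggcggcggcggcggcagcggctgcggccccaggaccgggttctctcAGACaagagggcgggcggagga

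The SMAD box is common in promoters, and the difference in the longer word was not tested. The SMAD box was found in 88.0% of 32851 promoters of this length, with a median of 2 per promoter, and the longer CAGACA or TGTCTG, which contains it, in 21%. Ltbp2 held 5 boxes, Il11 held 2, Tnfrsf12a 4 and Smurf2 4, and the longer word was found once each in Tnfrsf12a and Smurf2. Of 8 target genes called lower that had a promoter entry, 8 held the box and 4 the longer word in the first listed promoter. Tnfrsf12a, the receptor of the cytokine TWEAK, had 189, 189.7 and 193 in pECDCs and 64.3, 140.3 and 71.4 in SB431542-treated cells, with replicate 2 near the primary level (log2 fold change -1.04 ± 0.28, adjusted p = 0.0255, called in 11 of 16 alternatives).

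None of the receptors that SB431542 binds was called lower. Tgfbr1 (ALK5) had 9.34, 8.47 and 8.84 in pECDCs, 5.79, 6.42 and 4.86 in iECDCs and 9.24, 7.97 and 10.2 in SB431542-treated cells and was not called against pECDCs (log2 fold change 0.047 ± 0.10, adjusted p = 0.749), although it was lower in iECDCs (log2 fold change -0.66). Acvr1b (ALK4) had 7.08, 7.21 and 6.62 in pECDCs, 5.05, 5.59 and 5.49 in iECDCs and 12.1, 9.51 and 12.8 in SB431542-treated cells and rose (log2 fold change 0.73 ± 0.12, adjusted p = 0.005). Acvr1c (ALK7) had 3 counts in 1 treated library and 0 in the other 8, so it was at the floor everywhere. Over 40 tested ligands, receptors, SMADs and antagonists of the superfamily, 13 were called higher and 15 lower (19 and 19 of 41 without replicate 2), with a median log2 fold change of -0.09, or 0.067 without that library. As shares this was 32.5% and 37.5%, beside 17.9% and 17.0% of all tested genes. Leaving out replicate 2 gave 46.3% each, beside 31.7% and 32.3%. Without any 1 pECDC library the higher count was 7.

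Within the superfamily, receptors and ligands moved in both directions. The co-receptor betaglycan, Tgfbr3, had 10.98, 10.3 and 10.3 in pECDCs and 30.7, 18.4 and 32.1 in SB431542-treated cells (log2 fold change 1.37 ± 0.20, adjusted p = 0.00329). Tgfbr2 rose by 0.45 ± 0.10 (adjusted p = 0.0144). Bmp4, a BMP ligand, had 1.40, 1.497 and 1.62 in pECDCs, 1.59, 1.98 and 1.42 in iECDCs and 8.47, 4.23 and 8.37 in SB431542-treated cells, so that both untreated groups were alike and all treated libraries above them (log2 fold change 2.23 ± 0.28, adjusted p = 0.00193). The BMP antagonist Chrd rose by 1.47 ± 0.27 (adjusted p = 0.0065). Gdf6, another BMP-family ligand, fell stepwise across the groups, with 10.7, 11.8 and 12.1 in pECDCs, 2.76, 3.15 and 4.24 in iECDCs and 1.39, 0.727 and 1.03 in SB431542-treated cells (log2 fold change -3.46 ± 0.21, adjusted p = 0.000138). Fst, which encodes the activin-binding follistatin, had 10.4, 10.46 and 11.46 in pECDCs and 1.06, 4.14 and 1.36 in SB431542-treated cells (log2 fold change -2.28 ± 0.46, adjusted p = 0.0094). Inhba, the activin A subunit, had 118, 112 and 108 in pECDCs and 31.3, 36.97 and 33.7 in SB431542-treated cells (log2 fold change -1.72 ± 0.089, adjusted p = 8.02e-05). Among BMP receptors, Bmpr1b had a log2 fold change of -1.99 ± 0.20, adjusted p = 0.000858. Of the receptor-activated SMADs, Smad3 rose and Smad2 fell, by small amounts (log2 fold changes 0.57 ± 0.086, adjusted p = 0.0034 for Smad3 and -0.43 ± 0.065, adjusted p = 0.00348 for Smad2).

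Few BMP target genes were called with all 6 libraries, and more without 1 library, as over all tested genes. Of 10 tested, 2 were called lower, Smad7 and Bambi, which are also on the TGF-β target list, and 1 was called higher, Smad9, with an adjusted p just under the threshold (log2 fold change 0.56 ± 0.18) and a call in 5 of 16 alternatives. Id1, an inhibitor of basic helix-loop-helix factors and a classic BMP target, had FPKM of 63.8, 57.6 and 60.9 in pECDCs and 17.3, 65.3 and 17.8 in SB431542-treated cells, and Id3 had 197, 191 and 189.5 in pECDCs and 75.46, 174 and 76.2 in SB431542-treated cells. In both genes replicate 2 was near the primary level and the other treated libraries were well below it, and neither gene was called (adjusted p = 0.214 and 0.0798). With all 6 libraries the shares of 20% lower and 10% higher stood beside 17.0% and 17.9% of all tested genes. Without replicate 2, 5 of the 10 were called lower and 1 higher, beside 32.3% and 31.7% of all tested genes.

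Contractile genes of smooth muscle and myofibroblasts were lower in part. Of 23 tested genes 8 were called lower and 2 higher, with a median log2 fold change of -0.32. Without replicate 2 the counts were 16 lower and 4 higher of 24, and without each other library 7 lower and 1 to 2 higher. With all 6 libraries the shares lower and higher were 34.8% and 8.7%, beside 17.0% and 17.9% of all tested genes. Leaving out replicate 2 gave 66.7% and 16.7%, beside 32.3% and 31.7%. Acta2, smooth muscle α-actin, had FPKM of 737, 714 and 733 in pECDCs, 812, 848 and 1898 in iECDCs and 137, 322 and 137 in SB431542-treated cells. All treated libraries lay below all untreated ones, with replicate 2 between the others and the primary level (log2 fold change -1.87 ± 0.33, adjusted p = 0.00608, and -2.40 without replicate 2). Myl9, the regulatory light chain of smooth muscle myosin, had 92.2, 94.1 and 96.8 in pECDCs and 14.7, 35.6 and 15.9 in SB431542-treated cells (log2 fold change -2.08 ± 0.32, adjusted p = 0.00357). Cald1, which encodes the actin-binding caldesmon, had 163, 156 and 155 in pECDCs and 62.48, 91.6 and 63.45 in SB431542-treated cells (log2 fold change -1.12 ± 0.15, adjusted p = 0.00245). Lmod1, which nucleates actin filaments in smooth muscle, had a log2 fold change of -2.47 ± 0.30, adjusted p = 0.00168. The 2 genes called higher were Mylk, myosin light chain kinase, which stayed low with FPKM of 0.337, 0.272 and 0.278 in pECDCs and 1.34, 0.460 and 1.22 in SB431542-treated cells, and Mkl2, a coactivator of serum response factor (log2 fold change 0.41 ± 0.082, adjusted p = 0.00897). Cnn2, calponin 2, and Flna, filamin A, are abundant members that were not called, with log2 fold changes of -0.25 ± 0.12 and 0.037 ± 0.15.

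Matrix genes split into risers and fallers. Of 34 tested collagen and matrix genes, 12 were called lower and 11 higher, against 18 and 16 without replicate 2 and 7 to 10 and 6 to 8 without each other library. The 12 and 11 were 35.3% and 32.4%, beside 17.0% and 17.9% of all tested genes. The 18 and 16 were 52.9% and 47.1%, beside 32.3% and 31.7%. Among the fallers, Col11a1, a fibril collagen of cartilage and embryonic mesenchyme, had FPKM of 20.4, 20.2 and 20.4 in pECDCs, 12.8, 13.2 and 11.3 in iECDCs and 1.74, 1.26 and 2.05 in SB431542-treated cells (log2 fold change -3.59 ± 0.18, adjusted p = 7.76e-05). Col5a2 had 174, 168 and 169.8 in pECDCs and 44.6, 48.52 and 48.46 in SB431542-treated cells (log2 fold change -1.84 ± 0.078, adjusted p = 4.49e-05), so that the 3 treated libraries lay close together and far below the primary ones. Timp3 and Timp1 encode tissue inhibitors of metalloproteinases. Timp3 had a log2 fold change of -1.82 ± 0.09, adjusted p = 7.76e-05, and Timp1 of -1.13 ± 0.32, adjusted p = 0.0325 with the call lost in 5 of 16 alternatives.

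The rising matrix genes were led by Eln, Mmp3 and Dcn. Mmp3, the metalloproteinase stromelysin-1, had FPKM of 8.22, 10.2 and 10.7 in pECDCs, 0.880, 0.844 and 0.434 in iECDCs and 315, 48.4 and 322 in SB431542-treated cells, so that iECDCs lay below and treated cells above the primary level (log2 fold change 4.57 ± 0.70, adjusted p = 0.0036). Dcn, decorin, a small leucine-rich proteoglycan that binds collagen and TGF-β, had 0.615, 0.903 and 0.785 in pECDCs, 0.390, 0.542 and 0.479 in iECDCs and 17.4, 3.43 and 18.7 in SB431542-treated cells (log2 fold change 4.12 ± 0.64, adjusted p = 0.00382). Eln, the elastin gene, had 0.0101, 0.0558 and 0.0370 in pECDCs and 1.68, 0.217 and 1.52 in SB431542-treated cells (log2 fold change 5.08 ± 0.92, adjusted p = 0.00662). In all 3 genes replicate 2 was above every primary library and well below the other treated libraries. In all 11 called risers of the list replicate 2 lay between the pECDC libraries and replicates 1 and 3, against 65.2% of all genes called higher. Fibrillar collagen I did not pass the test in either chain. Col1a1 had 651, 637 and 654 in pECDCs and 772, 346 and 678 in SB431542-treated cells, with replicate 2 below and the other treated libraries above the primary range (log2 fold change -0.10 ± 0.27, adjusted p = 0.796). Thbs1, thrombospondin 1, the most abundant gene of the list, had 1921, 1885 and 1837 in pECDCs and 1484, 1154 and 1580 in SB431542-treated cells (log2 fold change -0.41 ± 0.14, adjusted p = 0.0522).

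Protein-coding genes that averaged 10 FPKM or more in 1 of the groups and whose groups did not overlap were ranked by size of change. Sfrp2, a secreted modulator of Wnt signalling on chromosome 3, 83766321 to 83774316, plus strand, had 0, 1 and 2 counts in pECDCs and 1117, 436 and 1058 in SB431542-treated cells, a ratio of 1047 (358 to 5082) with its 95% counting interval. In FPKM these treated levels were 29.6, 9.63 and 27.2, and iECDCs had 3, 6 and 5 counts. Fgf23, a hormone of phosphate balance, had FPKM of 1.06, 1.22 and 1.16 in pECDCs, 0.328, 0.469 and 0.323 in iECDCs and 56.99, 10.6 and 60.1 in SB431542-treated cells (log2 fold change 5.23 ± 0.71, adjusted p = 0.0023). The primary level of Fgf23 was thus low but measured in all libraries, and all treated libraries lay above it. Clu, clusterin, an extracellular chaperone, had 12.7, 13.7 and 14.4 in pECDCs, 4.99, 5.49 and 3.92 in iECDCs and 263, 32.4 and 271 in SB431542-treated cells (log2 fold change 3.81 ± 0.73, adjusted p = 0.00799). Apoe, a carrier of lipids in lipoproteins, had 16.4, 20.4 and 21.2 in pECDCs, 49.6, 46.52 and 38.3 in iECDCs and 302, 123 and 313 in SB431542-treated cells, with iECDCs between the primary and the treated cells (log2 fold change 3.68 ± 0.37, adjusted p = 0.000854).

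The other named rises had the same order of libraries. Prelp, a leucine-rich matrix proteoglycan, had FPKM of 0.756, 0.681 and 0.770 in pECDCs and 24.2, 5.02 and 20.8 in SB431542-treated cells (log2 fold change 4.51 ± 0.61, adjusted p = 0.00229). Cxcl5, a chemokine that attracts neutrophils, had 2.65, 2.56 and 2.505 in pECDCs, 14.54, 12.2 and 4.47 in iECDCs and 57.48, 25.1 and 68.2 in SB431542-treated cells (log2 fold change 4.30 ± 0.39, adjusted p = 0.000603). Pamr1 had 0.809, 0.914 and 1.04 in pECDCs and 24.2, 4.40 and 22.9 in SB431542-treated cells (log2 fold change 4.23 ± 0.64, adjusted p = 0.00351). Serpina3g, a serine protease inhibitor, had 0.852, 1.57 and 1.65 in pECDCs and 49.2, 4.18 and 48.1 in SB431542-treated cells (log2 fold change 4.66 ± 0.92, adjusted p = 0.00882). Serpina3g has near-identical copies beside it, and how reads shared between copies were counted is not given in the sources used here, so its own level is uncertain. That replicate 2 was above every primary library in these genes was set by the ranking rule. In all 10 of them, counting Mmp3 and Dcn, replicate 2 was also below the other treated libraries. Over all genes called higher, replicate 2 lay between the primary and the other treated libraries in 65.2%. Leaving replicate 2 out raised the log2 fold change of Apoe from 3.68 to 4.003 and that of Serpina3g from 4.66 to 5.19.

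The largest falls included genes that left no or almost no counts. Cdkn2a, which encodes the cell cycle inhibitors p16INK4a and p19ARF on chromosome 4, 89274471 to 89294653, minus strand, had 550, 407 and 562 counts in pECDCs and 0 in every SB431542-treated library, at least 138-fold lower against a floor of 3 counts per library. Barx1, a homeobox transcription factor, had 369, 349 and 385 counts in pECDCs and 0, 1 and 0 in treated cells, a ratio of 917 (164 to 36230) with its 95% counting interval. Pdpn, podoplanin, a mucin-like membrane glycoprotein of mesothelium, had 2534, 1816 and 2264 counts in pECDCs and 1, 4 and 3 in treated cells, a ratio of 687 (348 to 1592). These 3 genes were also at 0 to 13 counts in the iECDC libraries.

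Other falls left the treated libraries below both untreated groups. Pappa, a metalloproteinase that cleaves insulin-like growth factor binding proteins, had FPKM of 21.7, 21.4 and 20.4 in pECDCs, 20.2, 25.3 and 17.8 in iECDCs and 0.0724, 0.496 and 0.136 in SB431542-treated cells, with iECDCs on both sides of the primary values (log2 fold change -6.43 ± 0.53, adjusted p = 0.000417, and -7.65 without replicate 2). Tll1, a tolloid-like protease of the BMP-1 family, had 12.96, 12.3 and 11.6 in pECDCs, 8.28, 8.78 and 6.46 in iECDCs and 0.191, 0.337 and 0.121 in SB431542-treated cells (log2 fold change -5.79 ± 0.27, adjusted p = 6.25e-05). Fgf2, basic fibroblast growth factor, had 19.2, 18.8 and 18.4 in pECDCs, 8.65, 9.09 and 7.004 in iECDCs and 0.336, 1.44 and 0.326 in SB431542-treated cells (log2 fold change -4.70 ± 0.51, adjusted p = 0.00114, and -5.82 without replicate 2). Fgf2 overlaps Nudt6 and Fgf2os on the other strand, and whether counting used the strand is not given in the sources used here.

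Some falls were shared with the iECDCs in part. Crabp1, a cytosolic retinoic acid binding protein, fell in steps with FPKM of 30.3, 29.4 and 28.7 in pECDCs, 1.36, 1.97 and 2.84 in iECDCs and 0.0711, 0.415 and 0.207 in SB431542-treated cells (log2 fold change -6.88 ± 0.28, adjusted p = 3.74e-05). Plac8 had 28.4, 28.9 and 30.7 in pECDCs, 13.2, 14.48 and 12.7 in iECDCs and 0.358, 2.30 and 0.695 in SB431542-treated cells (log2 fold change -4.65 ± 0.47, adjusted p = 0.000898). Efemp1, the matrix protein fibulin-3, had 11.8, 13.51 and 12.1 in pECDCs, 0.122, 0.149 and 0 in iECDCs and 0.672, 0.187 and 0.543 in SB431542-treated cells, which is low in iECDCs and treated cells (log2 fold change -4.75 ± 0.32, adjusted p = 0.000182). Gpx3, a secreted glutathione peroxidase, had 11.4, 10.9 and 11.9 in pECDCs, 0.437, 0.940 and 0.646 in iECDCs and 0.503, 0.603 and 0.244 in SB431542-treated cells (log2 fold change -4.63 ± 0.24, adjusted p = 8.02e-05). The 10 falls and 10 rises named by this rule were called in every alternative in which they were tested. The rule picked called genes with large changes and no overlap from these same libraries, so this was largely set in advance. Genes under 10 FPKM, such as Eln and Ltbp2, changed by more on the log2 scale than some of them.

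**Figure D3:**
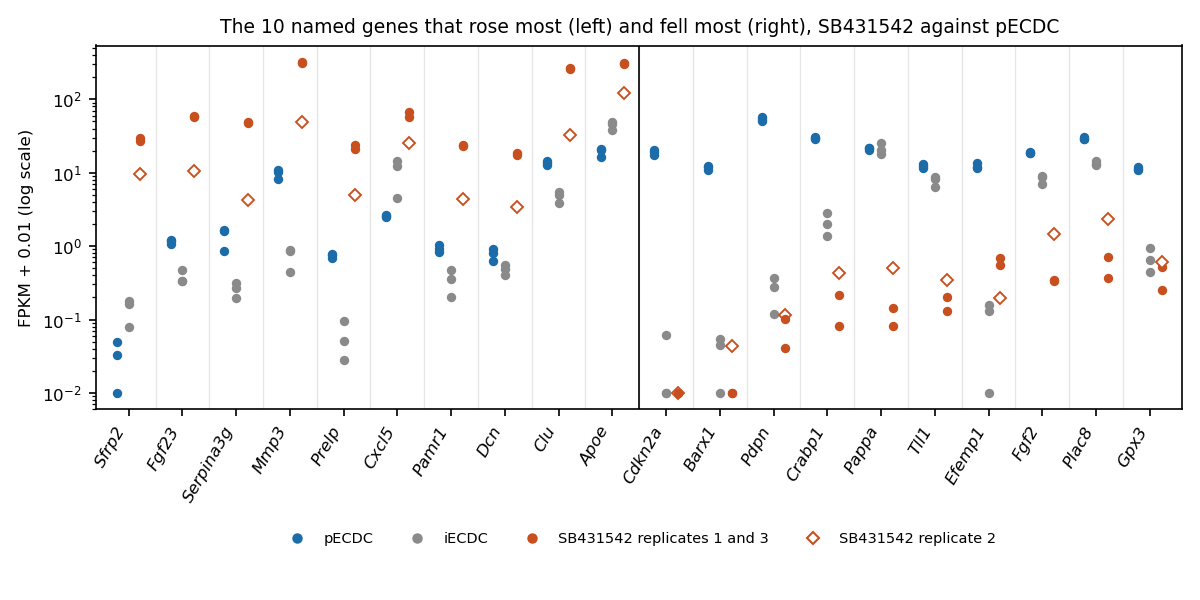
FPKM plus 0.01 on a log axis for the 10 genes with the largest rise (left of the line) and the 10 with the largest fall (right) in SB431542-treated cells against pECDCs, in each of 9 libraries; blue is pECDC, grey iECDC, orange SB431542 and the open diamond SB431542 replicate 2. In the rises the diamond lies between the primary and the other treated libraries, and in Cdkn2a, Barx1, Pdpn, Efemp1 and Gpx3 the grey points lie with or near the orange ones.

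Placing the iECDCs beside the comparison sorted genes by where the treated cells ended. Of 13307 genes tested in all 3 comparisons, 2113 were called between iECDCs and pECDCs. Of these, 1003 were called between treated cells and iECDCs in the opposite direction and are described as returned toward the primary level. Another 122 were called in the same direction and are described as moved further away. The other 988 were not called between treated cells and iECDCs and are described as kept. The names give positions relative to iECDCs and pECDCs. They would describe a change of the cells only if the treated cells came from iECDCs, as the labels say, and not from pECDCs. A missing call does not show that 2 groups were equal. A further 2785 genes were not called between iECDCs and pECDCs but were called between treated cells and iECDCs, and 2247 of those were also called against pECDCs. These classes are counts from 3 fits that share libraries and have no test of their own. The iECDC libraries enter both comparisons behind the returned and further classes, with opposite signs. Their own deviations thus favour returned over further, so the counts of these classes cannot be weighed against each other. Without SB431542 replicate 2 and iECDC replicate 3, 3042 genes had returned, 488 had moved further and 760 were kept.

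Few returns stopped short of the primary level. Of the 1003 genes, 595 were not called against pECDCs and are described as having reached the primary level, 18 stopped short of it and 390 went past it. This split turned with 1 library, since without SB431542 replicate 2 there were 315, 75 and 1068 such genes, and without iECDC replicate 3 as well 715, 118 and 2209. Without each other library alone, reached genes numbered 200 to 499, short genes 12 to 15 and past genes 103 to 959. Spon2, the matrix protein spondin 2, is an example of a gene that was low in iECDCs and not called against pECDCs, with FPKM of 96.7, 91.7 and 99.2 in pECDCs, 9.14, 7.27 and 5.59 in iECDCs and 83.2, 56.9 and 83.98 in SB431542-treated cells (log2 fold change against pECDCs -0.35 ± 0.15, adjusted p = 0.119). All its treated libraries still lay below all primary ones, so its place in the reached class rests on a missing call. Foxa2, a forkhead transcription factor, had 10.8, 10.4 and 10.2 in pECDCs, 1.46, 1.85 and 1.29 in iECDCs and 12.6, 8.21 and 9.88 in SB431542-treated cells. Sfrp1, a secreted Wnt antagonist, had 75.7, 74.4 and 77.05 in pECDCs, 14.00, 14.3 and 12.9 in iECDCs and 149.6, 46.3 and 152 in SB431542-treated cells, so that replicate 2 was below and the other treated libraries above the primary level, and without replicate 2 its log2 fold change of 0.63 became 1.002.

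Genes that were high in iECDCs and not called against pECDCs in treated cells included Hmox1 and Rgs16, and in both all treated libraries still lay below all primary ones. Hmox1, haem oxygenase 1, had FPKM of 313, 308 and 312 in pECDCs, 811, 797 and 320.4 in iECDCs and 90.7, 243 and 92.7 in SB431542-treated cells and an adjusted p of 0.0508 against pECDCs, just outside the threshold, so its place in this class rests on a missed call. Rgs16, a regulator of G protein signalling, had 4.71, 4.81 and 5.49 in pECDCs, 14.97, 13.4 and 8.26 in iECDCs and 3.34, 4.59 and 3.48 in SB431542-treated cells. Lce1g, a late cornified envelope gene, had 2.20, 1.57 and 2.08 in pECDCs, 16.6, 17.4 and 19.1 in iECDCs and 0.0617, 2.93 and 0.0598 in SB431542-treated cells, and here replicate 2 was above the primary libraries while the other treated libraries were near 0. Asb5 is the example of a gene that stopped short, with 8.23, 8.53 and 8.85 in pECDCs, 30.2, 29.6 and 31.4 in iECDCs and 16.03, 13.1 and 16.01 in SB431542-treated cells. It overlaps Spcs3 on the other strand, so its level is uncertain.

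Genes that went past the primary level reversed the difference of the iECDCs. Prelp, Mmp3 and Serpina3g were the leading rises of this kind, each lower in iECDCs than in pECDCs (log2 fold changes -3.91, -3.73 and -2.45) and higher in treated cells. Ccl17, a chemokine for T cells, led the falls with FPKM of 38.2, 34.99 and 37.7 in pECDCs, 109.8, 100.2 and 108 in iECDCs and 1.66, 9.25 and 1.40 in SB431542-treated cells (log2 fold change against pECDCs -3.12 ± 0.58, adjusted p = 0.00713), and Ctgf was among them. Among 19 TGF-β targets tested in all 3 comparisons, 5 went past the primary level, 7 differed in treated cells alone, 4 were kept, 1 moved further, 1 reached the primary level and 1 was in none of the classes.

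Genes that moved further continued the difference of the iECDCs. Apoe and Cxcl5 were higher in iECDCs than in pECDCs and higher again in treated cells. Ildr2 followed them with FPKM of 2.07, 2.18 and 1.78 in pECDCs, 3.57, 3.77 and 4.83 in iECDCs and 24.1, 10.6 and 23.2 in SB431542-treated cells (log2 fold change against pECDCs 3.27 ± 0.32, adjusted p = 0.000834). On the falling side, Plac8 and Col11a1 were joined by Esm1, an endothelial-type proteoglycan also called endocan, with 58.6, 58.8 and 58.7 in pECDCs, 46.4, 42.3 and 43.7 in iECDCs and 4.19, 9.95 and 5.28 in SB431542-treated cells (log2 fold change -3.17 ± 0.29, adjusted p = 0.000623). Gzmk overlaps it on the other strand.

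Kept differences were those present in untreated iECDCs as well. Renbp, a renin-binding protein, had FPKM of 14.1, 13.6 and 13.8 in pECDCs, 0.636, 0.293 and 0.131 in iECDCs and 0.572, 0.667 and 0.799 in SB431542-treated cells (log2 fold change against pECDCs -4.33 ± 0.13, adjusted p = 1.1e-05). Ripk3, a kinase of necroptosis, had 14.3, 14.2 and 13.2 in pECDCs, 3.44, 3.40 and 2.41 in iECDCs and 1.82, 2.61 and 1.64 in SB431542-treated cells (log2 fold change -2.76 ± 0.17, adjusted p = 0.000138). Hsd3b6, a hydroxysteroid dehydrogenase, was higher in iECDCs and treated cells with 5.88, 6.13 and 6.80 in pECDCs, 61.52, 54.7 and 25.2 in iECDCs and 41.01, 20.03 and 40.51 in SB431542-treated cells (log2 fold change 2.44 ± 0.28, adjusted p = 0.00138). Smoc1, a matrix-associated calcium-binding protein, had 1.67, 1.71 and 1.52 in pECDCs, 13.6, 13.96 and 10.46 in iECDCs and 4.99, 10.7 and 4.58 in SB431542-treated cells (log2 fold change 2.06 ± 0.33, adjusted p = 0.00425). The class is not firm for every member: 1700012B09Rik had 7.77, 7.42 and 8.52 in pECDCs, 35.6, 27.3 and 17.7 in iECDCs and 2.23, 21.2 and 2.84 in SB431542-treated cells, and its log2 fold change against pECDCs of 0.17 became -1.63 without replicate 2.

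Genes that differed in treated cells alone included lipid and inflammatory genes. Abca1, which exports cholesterol from cells, had FPKM of 11.8, 11.9 and 11.3 in pECDCs, 9.02, 10.1 and 5.08 in iECDCs and 87.1, 21.9 and 83.49 in SB431542-treated cells (log2 fold change against pECDCs 2.47 ± 0.48, adjusted p = 0.00815). C4b, a complement component, had 1.06, 1.15 and 1.07 in pECDCs, 1.17, 1.45 and 1.62 in iECDCs and 14.50, 5.39 and 13.47 in SB431542-treated cells (log2 fold change 3.35 ± 0.38, adjusted p = 0.0013). Dtx4, a regulator of Notch signalling, had 3.81, 4.03 and 3.39 in pECDCs, 2.97, 3.29 and 3.71 in iECDCs and 30.9, 14.7 and 28.7 in SB431542-treated cells (log2 fold change 2.74 ± 0.28, adjusted p = 0.000931). Ptgs2, cyclooxygenase 2, fell with 100.3, 98.4 and 96.1 in pECDCs, 189.6, 187 and 71.95 in iECDCs and 2.71, 17.2 and 3.37 in SB431542-treated cells (log2 fold change -3.65 ± 0.69, adjusted p = 0.00777, and -5.002 without replicate 2). In Abca1 and Ptgs2 replicate 2 lay well apart from the other treated libraries and on the same side of the primary level. The class rests on missing calls between iECDCs and pECDCs. All iECDC libraries lay below the primary ones in Abca1 and above them in C4b. In Ptgs2, iECDC replicates 1 and 2 lay above all primary libraries and iECDC replicate 3 below them.

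**Figure D4:**
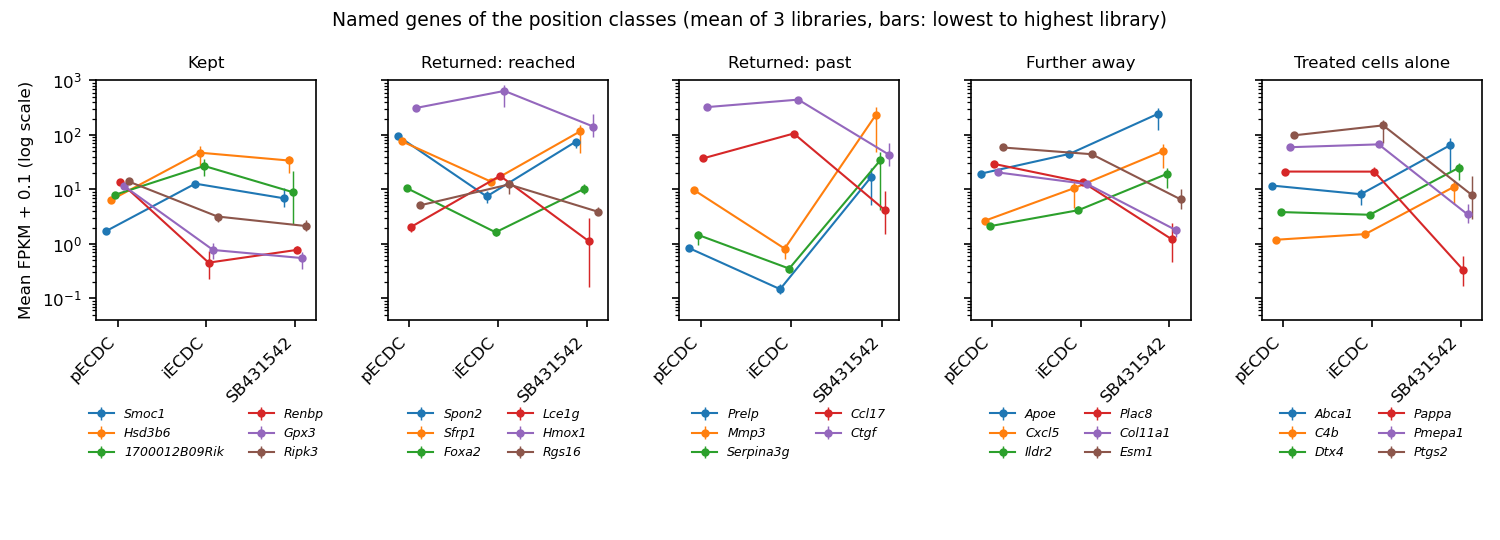
Mean FPKM plus 0.1 on a log axis in pECDC, iECDC and SB431542 libraries for the named genes of 5 position classes (kept, reached, past, further away, treated cells alone), with bars from the lowest to the highest of 3 libraries. In kept genes other than 1700012B09Rik the step from iECDC to SB431542 is smaller than that from pECDC to iECDC, and the lines of genes that reached or went past the primary level turn back.

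Many cholesterol synthesis genes rose, mainly in SB431542 replicates 1 and 3, and how many passed the test depended on the libraries. Of 26 tested genes of cholesterol and fatty acid synthesis, 18 were called higher and none lower in edgeR's test, with a median log2 fold change of 1.11. The share higher was 69.2%, beside 17.9% of all tested genes, and 96.2% beside 31.7% when replicate 2 was left out. The count of higher genes rested on the libraries, with 25 without replicate 2, 6 without any 1 pECDC library, 7 without SB431542 replicate 1 and 8 without SB431542 replicate 3, and 0 were called lower in each case. Over all tested genes, higher calls numbered 2503 with all 6 libraries and 4552 without replicate 2. They numbered 1240 to 1292 without 1 pECDC library, 1620 without SB431542 replicate 1 and 1736 without SB431542 replicate 3. Sqle, squalene epoxidase, had FPKM of 7.37, 7.07 and 7.30 in pECDCs, 7.81, 7.17 and 12.1 in iECDCs and 33.3, 16.1 and 31.6 in SB431542-treated cells (log2 fold change 1.91 ± 0.26, adjusted p = 0.00245). Insig1, a sterol sensor of the endoplasmic reticulum, had 13.1, 12.7 and 13.4 in pECDCs and 61.3, 17.9 and 58.97 in SB431542-treated cells (log2 fold change 1.83 ± 0.42, adjusted p = 0.0155). Msmo1, a sterol demethylation enzyme, had 4.71, 4.52 and 4.80 in pECDCs and 16.8, 6.33 and 16.6 in SB431542-treated cells (log2 fold change 1.51 ± 0.34, adjusted p = 0.0151). Over the 18 members that differed at least 2-fold between pECDCs and replicates 1 and 3, replicate 2 lay at a median of 0.21 of the way from the primary to the treated level. The median was 0.45 over all higher genes that differed so, and replicate 2 lay under 0.5 in 15 of the 18 members. Fasn, fatty acid synthase, was not called, with a log2 fold change of 0.095 ± 0.078.

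Part of the p53 targets fell. Of 21 tested genes, 12 were called lower and none higher in edgeR's test, with a median log2 fold change of -0.60. Without replicate 2 the counts were 17 and 1, and without each of the other 5 libraries 6 and 0. The share lower was 57.1%, beside 17.0% of all tested genes, and 81.0% beside 32.3% when replicate 2 was left out. Mdm2, the ubiquitin ligase that limits p53, had FPKM of 44.3, 43.3 and 41.1 in pECDCs, 49.9, 50.97 and 43.8 in iECDCs and 15.54, 20.9 and 15.9 in SB431542-treated cells (log2 fold change -1.29 ± 0.12, adjusted p = 0.000659). Pmaip1, a pro-apoptotic BCL2-family protein also called Noxa, had 7.03, 7.16 and 6.93 in pECDCs and 1.03, 2.77 and 1.38 in SB431542-treated cells (log2 fold change -2.003 ± 0.31, adjusted p = 0.00382). Cdkn1a, the cell cycle inhibitor p21, had 131, 125 and 129 in pECDCs and 55.03, 83.8 and 50.4 in SB431542-treated cells (log2 fold change -1.02 ± 0.18, adjusted p = 0.00626). Replicate 2 lay between the primary level and the other treated libraries in all 12 called genes, against 58.0% of all genes called lower. Phlda3 and Bax are the most abundant members that were not called (log2 fold changes -0.32 ± 0.20 and -0.28 ± 0.15).

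Few proliferation genes were called with all 6 libraries, but most were called without replicate 2, and mainly lower. Of 40 proliferation genes, 4 were called higher and 3 lower, a share below that of all tested genes, but 9 and 24 without replicate 2 and 1 to 3 and 1 to 2 without each other library. Mki67, a marker of cycling cells, had FPKM of 28.6, 28.99 and 27.3 in pECDCs and 36.9, 35.2 and 37.2 in SB431542-treated cells (log2 fold change 0.37 ± 0.07, adjusted p = 0.00749). Ccnd3, cyclin D3, had 22.9, 23.49 and 23.2 in pECDCs and 15.2, 15.1 and 14.6 in SB431542-treated cells (log2 fold change -0.62 ± 0.062, adjusted p = 0.000848). Rrm2, a subunit of ribonucleotide reductase, had 84.2, 84.8 and 81.2 in pECDCs and 31.9, 78.7 and 33.45 in SB431542-treated cells, where replicate 2 was near the primary level and the other treated libraries far below it (adjusted p = 0.104, named after its values were seen). Of 9 tested cell cycle inhibitors 3 were called lower (Cdkn2a, Cdkn2b and Cdkn1a) and 3 higher (5 without replicate 2 and 1 to 2 without each other library), led by Cdkn2c, p18INK4c, with 19.4, 19.47 and 20.9 in pECDCs and 31.6, 29.7 and 31.48 in SB431542-treated cells (log2 fold change 0.64 ± 0.068, adjusted p = 0.00105). Each direction held 33.3% of the tested inhibitors, beside 17.0% lower and 17.9% higher of all tested genes.

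Interferon response genes were called lower more often than higher, in treated cells and in iECDCs. Of 29 tested genes, 12 were called lower and 2 higher in treated cells than in pECDCs, and 22 of 28 were called lower in iECDCs. Without replicate 2, 14 were called lower and 9 higher in treated cells, and without each other library 7 to 10 lower and 1 higher. In treated cells 41.4% were called lower and 6.9% higher, beside 17.0% and 17.9% of all tested genes. Leaving out replicate 2 gave 48.3% and 31.0%, beside 32.3% and 31.7%. In iECDCs 78.6% were called lower, beside 9.21% of all tested genes. Bst2, a membrane protein that tethers budding viruses, had FPKM of 212, 237 and 260.0 in pECDCs, 139, 159 and 139.8 in iECDCs and 60.05, 55.2 and 60.1 in SB431542-treated cells (log2 fold change -2.01 ± 0.097, adjusted p = 7.31e-05). Oas1a, a sensor of double-stranded RNA, had 5.88, 6.82 and 7.32 in pECDCs, 3.39, 4.68 and 4.52 in iECDCs and 0.756, 0.504 and 0.440 in SB431542-treated cells (log2 fold change -3.55 ± 0.21, adjusted p = 0.000135). Gbp2, a guanylate-binding protein, rose with 3.19, 3.73 and 4.27 in pECDCs and 8.21, 5.80 and 8.14 in SB431542-treated cells (log2 fold change 0.99 ± 0.18, adjusted p = 0.00625). Replicate 2 lay between the primary level and the other treated libraries in 0 of the 12 called falls, against 58.0% of all genes called lower. Of 27 members tested in all 3 comparisons 17 were in the kept class.

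Of the epicardial genes more were called higher than lower, Wt1 and Tcf21 included, at low levels of both. Of 18 tested genes 8 were called higher and 5 lower, with a median log2 fold change of 0.74 (10 and 6 without replicate 2). The 8 and 5 were 44.4% and 27.8%, beside 17.9% and 17.0% of all tested genes. The 10 and 6 were 55.6% and 33.3%, beside 31.7% and 32.3%, so the lower share was then near that of all genes. C3, complement component 3, had FPKM of 7.88, 8.60 and 8.17 in pECDCs, 5.02, 4.73 and 5.39 in iECDCs and 80.1, 31.8 and 82.7 in SB431542-treated cells (log2 fold change 2.99 ± 0.35, adjusted p = 0.00153). Upk3b, uroplakin 3B of mesothelium, had 0.139, 0.142 and 0.109 in pECDCs and 1.16, 1.31 and 1.36 in SB431542-treated cells (log2 fold change 3.29 ± 0.21, adjusted p = 0.00016). Tbx18, a T-box factor of the epicardium, had 18.99, 19.6 and 20.3 in pECDCs and 39.7, 22.9 and 41.8 in SB431542-treated cells (log2 fold change 0.84 ± 0.21, adjusted p = 0.0228). Wt1, the Wilms tumour factor that marks epicardium, was called higher, with 0.0921, 0.0324 and 0.0207 in pECDCs and 0.396, 0.107 and 0.348 in SB431542-treated cells (log2 fold change 2.49 ± 0.66, adjusted p = 0.0257, called in 10 of 15 alternatives). Tcf21, a basic helix-loop-helix factor of epicardium and cardiac fibroblasts, had 0.851, 0.706 and 0.638 in pECDCs and 1.58, 1.38 and 1.34 in SB431542-treated cells (log2 fold change 0.97 ± 0.19, adjusted p = 0.00911). Against these, Pdpn and Efemp1 fell as above, and Aldh1a2, which makes retinoic acid in the epicardium, fell with 5.91, 5.30 and 5.28 in pECDCs, 2.76, 2.499 and 3.19 in iECDCs and 0.227, 0.546 and 0.513 in SB431542-treated cells (log2 fold change -3.65 ± 0.26, adjusted p = 0.000235).

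Epithelial genes were mostly at low counts. Of 24 listed junction and keratin genes 8 passed the filter on low counts, and 2 of these were called higher and 0 lower in edgeR's test. Without replicate 2, 7 of 9 tested were called higher and 1 lower, and without each other library 1 to 4 were called higher and 0 lower. The share higher was 25.0%, beside 17.9% of all tested genes, and 77.8% beside 31.7% when replicate 2 was left out. The genes that did not pass the filter are not described by these counts. F11r, a junctional adhesion molecule, had FPKM of 1.36, 1.30 and 1.16 in pECDCs and 8.05, 2.09 and 7.88 in SB431542-treated cells (log2 fold change 2.24 ± 0.49, adjusted p = 0.0128) and Jup, plakoglobin, 2.81, 2.65 and 2.68 in pECDCs and 5.94, 5.01 and 4.92 in SB431542-treated cells (log2 fold change 0.97 ± 0.10, adjusted p = 0.000967). Tjp1, tight junction protein 1, had 13.2, 12.9 and 12.03 in pECDCs and 15.6, 11.8 and 14.1 in SB431542-treated cells and was not called (log2 fold change 0.13 ± 0.11, adjusted p = 0.389). Of 14 EMT factors and mesenchymal genes 3 were called higher and 3 lower (5 and 5 without replicate 2, 1 to 2 and 2 without each other library). These shares of 21.4% each were near the 17.9% and 17.0% of all tested genes. Without replicate 2 they were 35.7% each, near the 31.7% and 32.3% of all tested genes. Snai1 and Foxc2, transcription factors of EMT, fell (log2 fold changes -1.02 ± 0.20, adjusted p = 0.00834 for Snai1 and -1.62 ± 0.12, adjusted p = 0.000318 for Foxc2), and Fn1, fibronectin, rose with 338, 331 and 304 in pECDCs and 728, 434 and 659.5 in SB431542-treated cells (log2 fold change 0.91 ± 0.19, adjusted p = 0.0113). Vim, vimentin, and Cdh2, N-cadherin, had log2 fold changes of -0.27 ± 0.096 and 0.16 ± 0.12 and were not called.

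Secreted growth factors moved in both directions. Of 45 tested paracrine genes 18 were called lower and 12 higher (22 and 18 of 48 without replicate 2). As shares this was 40.0% and 26.7%, beside 17.0% and 17.9% of all tested genes. Leaving out replicate 2 gave 45.8% and 37.5%, beside 32.3% and 31.7%. Besides Fgf2 and Il11, Igf1, insulin-like growth factor 1, fell with FPKM of 5.02, 5.03 and 5.61 in pECDCs, 2.83, 2.82 and 3.49 in iECDCs and 0.489, 0.250 and 0.525 in SB431542-treated cells (log2 fold change -3.63 ± 0.25, adjusted p = 0.000197). Il33, an alarmin cytokine, was lower in iECDCs and treated cells, with 2.36, 2.58 and 2.58 in pECDCs, 0.0343, 0.0422 and 0 in iECDCs and 0.316, 0.0824 and 0.269 in SB431542-treated cells (log2 fold change -3.51 ± 0.36, adjusted p = 0.000917). Vegfd, a lymphangiogenic factor, rose with 21.3, 20.1 and 21.7 in pECDCs, 13.8, 14.2 and 14.7 in iECDCs and 178, 41.3 and 178 in SB431542-treated cells (log2 fold change 2.67 ± 0.51, adjusted p = 0.008), beside Sfrp2, Fgf23 and Cxcl5. Fgf7, keratinocyte growth factor, was abundant and not called (log2 fold change -0.13 ± 0.14).

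Surface markers of mesenchymal and cardiac progenitor cells moved in both directions. Of 16 tested 5 were called higher and 5 lower, against 9 and 7 without replicate 2 and 2 and 5 without each of the other 5 libraries. With all 6 libraries each direction held 31.2%, beside 17.9% higher and 17.0% lower of all tested genes. Leaving out replicate 2 gave 56.2% higher and 43.8% lower, beside 31.7% and 32.3%. Ly6a, the mouse antigen Sca-1, had FPKM of 3.92, 5.002 and 5.37 in pECDCs, 7.11, 6.51 and 5.08 in iECDCs and 35.4, 16.2 and 37.02 in SB431542-treated cells (log2 fold change 2.64 ± 0.33, adjusted p = 0.00182). Cd34 had 1.60, 1.55 and 1.83 in pECDCs and 6.75, 3.95 and 6.70 in SB431542-treated cells (log2 fold change 1.81 ± 0.22, adjusted p = 0.00158). Cd44, the hyaluronan receptor, had 69.8, 67.4 and 65.4 in pECDCs and 16.6, 34.96 and 17.1 in SB431542-treated cells (log2 fold change -1.55 ± 0.28, adjusted p = 0.0064). Alcam, an adhesion molecule, had a log2 fold change of -2.81 ± 0.16, adjusted p = 9.94e-05. Cd63 and Cd81, abundant tetraspanins, were not called (log2 fold changes -0.18 ± 0.069 and 0.20 ± 0.14).

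Positional and cardiac factors were mostly lower or not called. Of 18 tested cardiac transcription factors 5 were called lower and 2 higher (7 and 3 without replicate 2, 4 to 5 and 1 without each other library). The 5 and 2 were 27.8% and 11.1%, beside 17.0% and 17.9% of all tested genes. The 7 and 3 were 38.9% and 16.7%, beside 32.3% and 31.7%. Nkx2-5, a homeobox factor of the heart, had 80, 72 and 62 counts in pECDCs and 0 in all treated and all iECDC libraries, at least 19.7-fold lower in treated cells against 3 counts per library. Tbx20 had FPKM of 3.03, 2.93 and 2.64 in pECDCs and 1.502, 1.74 and 1.46 in SB431542-treated cells (log2 fold change -0.86 ± 0.10, adjusted p = 0.0015). Gata4, an abundant cardiac GATA factor, was not called (log2 fold change -0.18 ± 0.081). Of 14 tested Hox genes 8 were called lower and 2 higher, against 10 and 2 of 15 without replicate 2 and 5 to 7 and 0 to 1 without each other library. As shares this was 57.1% and 14.3% with all 6 libraries and 66.7% and 13.3% without replicate 2, beside the same shares of all tested genes. Hoxa7 rose with 2.08, 1.66 and 2.32 in pECDCs and 3.79, 2.91 and 3.44 in SB431542-treated cells (log2 fold change 0.74 ± 0.17, adjusted p = 0.0155). Hoxa3 fell with 3.18, 3.03 and 3.15 in pECDCs and 1.89, 1.86 and 1.89 in SB431542-treated cells (log2 fold change -0.72 ± 0.085, adjusted p = 0.0015). Hox genes of this cluster overlap one another or their antisense RNAs, so the split of reads is uncertain.

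Glycolysis and hypoxia genes and genes of the sex chromosomes completed the lists. Of 22 tested glycolysis and hypoxia genes 7 were called higher and 3 lower (13 and 7 without replicate 2). The 7 and 3 were 31.8% and 13.6%, beside 17.9% and 17.0% of all tested genes. The 13 and 7 were 59.1% and 31.8%, beside 31.7% and 32.3%, so neither lower share was above that of all genes. Hk2, hexokinase 2, fell with FPKM of 36.97, 35.8 and 36.47 in pECDCs and 12.53, 16.2 and 11.96 in SB431542-treated cells (log2 fold change -1.42 ± 0.12, adjusted p = 0.000425). Ndrg1, a hypoxia-responsive gene, rose with 1.90, 1.86 and 2.27 in pECDCs and 4.05, 3.96 and 4.30 in SB431542-treated cells (log2 fold change 1.04 ± 0.11, adjusted p = 0.000917). All 4 tested Y-linked genes were lower in treated cells and in iECDCs than in pECDCs, and 2 to 4 were called lower in treated cells when each library was left out in turn. Ddx3y, an RNA helicase, had 10.9, 11.6 and 10.9 in pECDCs, 7.47, 7.41 and 5.87 in iECDCs and 6.22, 4.84 and 7.29 in SB431542-treated cells (log2 fold change -0.86 ± 0.15, adjusted p = 0.00524). Xist had 0 counts in all 9 libraries.

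Markers of other cell types, apart from fibroblast and pericyte markers, had low summed levels. Of the endothelial markers 2 of 10 were tested and none was called in edgeR's test, and their summed FPKM was 5.62 to 6.31 in pECDCs and 3.19 to 5.91 in treated cells. Of the haematopoietic markers 4 of 10 were tested, with 2 called higher (Lyz2 and Cd14) and 1 lower (Cd68), and the sum was 12.0 to 13.4 in pECDCs and 16.0 to 17.7 in treated cells. Of the cardiomyocyte markers 3 of 15 were tested and 1 was called lower, Tnnt2, with sums of 2.51 to 3.52 and 1.73 to 2.40. Fibroblast markers had 4 of 8 tested members called higher and 0 lower (7 and 1 without replicate 2), with sums of 1158 to 1192 in pECDCs and 801.5 to 1524 in treated cells. Of 4 tested pericyte markers 2 were called higher and 2 lower (4 and 2 of 6 without replicate 2, 0 and 2 without each other library). Leaving out replicate 2, 66.7% were higher and 33.3% lower, beside 31.7% and 32.3% of all tested genes. Of 4 tested adipocyte markers none was called with all 6 libraries, and 2 were called higher and 1 lower without replicate 2. None of 5 Schwann cell markers passed the filter on low counts. In bulk libraries like these, a different share of cells and a different amount of RNA per cell cannot be told apart.

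**Figure D5:**
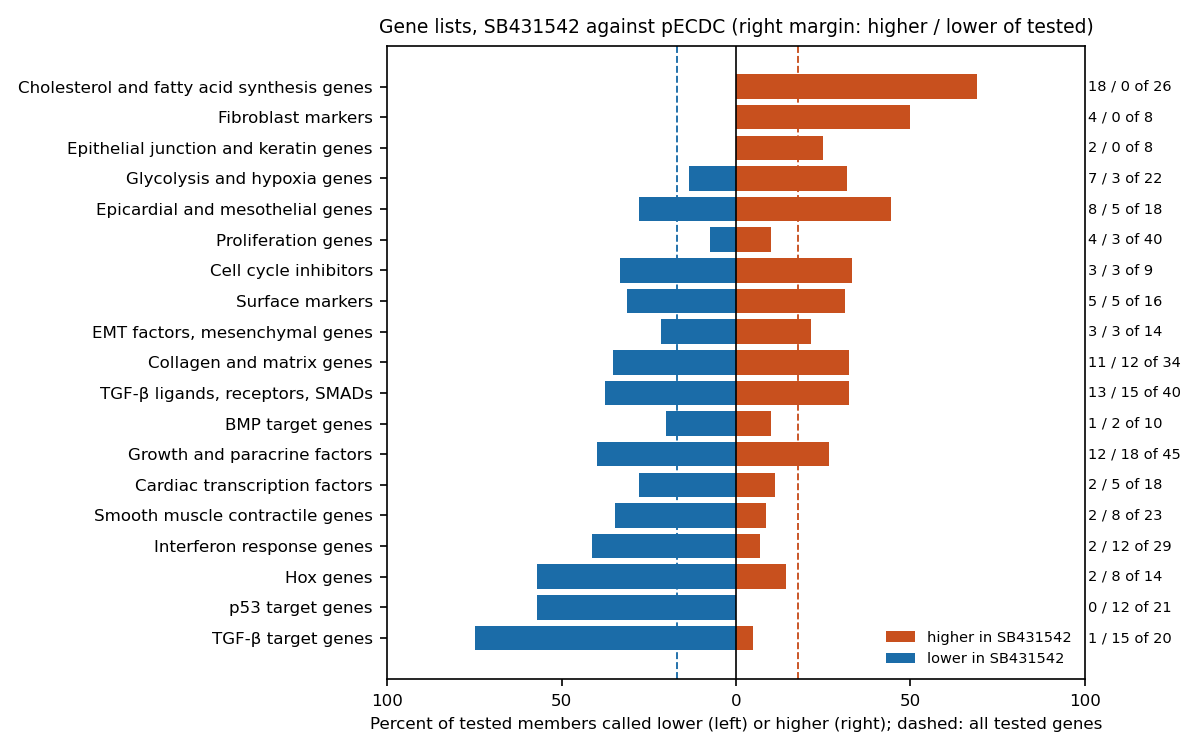
Percent of tested members of each gene list called lower (blue, left) or higher (orange, right) in SB431542-treated cells against pECDCs, for lists with at least 8 tested members; dashed lines mark all tested genes (17.0% lower and 17.9% higher) and the right margin gives the counts. TGF-β targets (1 higher and 15 lower of 20) and p53 targets (0 and 12 of 21) extend to the left, and cholesterol and fatty acid synthesis genes (18 and 0 of 26) to the right.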

How the data were processed

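RNA was sequenced from 9 libraries in 3 groups of 3, which the sample labels name. Per the labels, reads were processed by the authors with Bowtie2 2.0.6 and TopHat2 2.0.9 on mm9, but the deposited gene coordinates are those of GRCm38, since 53585 of 54532 genes have the same start and end in GENCODE M21. The counting tool and its strand setting are not given in the sources used here. The authors deposited raw read counts per gene and FPKM values, which are normalized for gene length and library size. The counts are whole numbers and were tested, and the FPKM values are printed as levels. Another 15 deposited columns hold the authors' own fold changes, p-values and related results and were not used. The sources differ on the library kit and on the tissue piece. Gene symbols that a spreadsheet had turned into dates (27) were restored through their gene identifiers, and the count of Pkm in pECDC replicate 3 (74461) does not match the 91686 its FPKM implies.

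For each pair of groups, the quasi-likelihood test of edgeR 4.0.16 (R 4.3.3) was run on the counts after TMM scaling and filterByExpr (minimum count 10, minimum total 15), with Benjamini-Hochberg adjustment over all tested genes and calls at an adjusted p under 0.05. The error after a log2 fold change is its SE, computed as its size divided by the square root of the F statistic. A gene is returned toward the primary level where iECDC against pECDC and SB431542 against iECDC were called in opposite directions, further away where in the same direction, kept where the second was not called, and different in treated cells alone where the first was not. Levels at 0 were bounded with a floor of 3 counts per library, and counting intervals are 95% exact intervals that cover counting error only. Libraries of 16568306 to 23951392 counts set the depth, and no pair of replicates was identical within sampling noise. A gene that overlaps another annotated gene may share reads with it, since the strand setting is unknown. Counts were simulated for this comparison over 14015 genes, of which some did not pass the filter again. On them edgeR recovered 169 of 200 genes changed by 1 on the log2 scale, with 7 false calls among 13610 unchanged genes that passed the filter. The simulation had even replicates and few changed genes, unlike these data with many called genes and 1 treated library apart. It therefore does not give the error rate of this comparison.

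Named genes are, for each list, up to 4 members called in each direction with the largest change and an FPKM of at least 1, and the most abundant members not called; the 10 protein-coding genes with the largest rise and fall at an FPKM of at least 10 with groups that do not overlap; the 3 such genes in each direction of each position class; and the receptors that SB431542 binds. The comparison, the gene lists and these rules were chosen with earlier results of these data known, and genes outside the rules are described without support drawn from them. Alternatives were DESeq2 1.42.0, RLE and upper-quartile scaling, other filters, limma 3.58.1 on log2(FPKM + 1) and log2(FPKM + 0.1), a joint fit of 9 libraries, a fold threshold, a replicate block and leaving out each library. Promoters came from a RefSeq table. Aldoa, Ca9 and Hoxd4 were not analysed here. A gene that is counted in the totals is not reported here by itself.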

Additional observations from a re-analysis of the deposited data

How the results depend on the processing

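The 4881 genes called between SB431542-treated cells and pECDCs ranged from 2453 to 9188 when each library was left out in turn, the highest value being that without SB431542 replicate 2, and numbered 1330 at a log2 fold change of at least 1. The 2258 genes called between iECDCs and pECDCs ranged from 1036 to 4467, and were 671 with all 9 libraries in one fit and 512 at that fold change. The 4061 called between treated cells and iECDCs ranged from 1707 to 7001, and were 1434 at that fold change and 8951 without both SB431542 replicate 2 and iECDC replicate 3, an alternative chosen after seeing the data. Returned genes (1003) ranged from 500 to 1473 over left-out libraries, with 371 in the joint fit, 206 at the fold change and 3042 without both libraries. Genes further away (122) ranged from 59 to 216, with 77, 39 and 488 in the same order and 200 with no filter on low counts. Kept genes (988) ranged from 345 to 2608, with 223 in the joint fit and 122 at the fold change. Genes different in treated cells alone (2785) ranged from 1001 to 5056, with 5402, 1038 and 5168. Upper-quartile scaling moved the split of treated cells against iECDCs from 2164 higher and 1897 lower to 2319 and 1701. DESeq2, limma, the other scalings and the stricter filter kept each of these 7 counts within 1.5 times.

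Without SB431542 replicate 2 the log2 fold change against pECDCs reversed for 1700012B09Rik (-1.63, against up to 0.62 without another library), Flna (-0.15, against up to 0.14) and Col1a1 (0.17, against down to -0.33). Over 190 named genes and 3023 alternative values, 2753 kept direction and call, 160 lost the call and 104 gained it. Of 832 list counts under alternatives, 670 stayed within 1.5 times. The cause of these shifts was not tested.

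Replicate numbers did not pair the libraries: deviations of same-numbered pECDC and SB431542 libraries correlated between -0.08 and 0.04, and not every library correlated best with its own number. With the replicate block 3886 genes were called (1953 higher and 1933 lower), with 1791 for iECDCs against pECDCs and 3038 for treated cells against iECDCs.

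With 3 libraries a group and 1 treated library apart from the others, the spread within the treated group limits the calls, and genes with low counts were not tested.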

Other observations

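Among protein-coding genes with an FPKM of at least 1 in every pECDC library, 7 had at most 3 counts in every iECDC and every SB431542-treated library. They were Barx1, Cd59a, Cdkn2a, Cdkn2b, Nkx2-5, Tbx4 and Vstm5, and this set was chosen after its values were seen. Over treated libraries alone the same rule gave 9 genes, with Gm17622 and Pcbd1 added. Cdkn2a and Cdkn2b lie side by side on chromosome 4. Of the genes near them, Mtap, an enzyme of methionine salvage, and Klhl9, a substrate adaptor of a ubiquitin ligase, were not at 0.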
